A study of Mus musculus with 4 samples.

Results

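The genes described here are 10 markers of T cells and natural killer (NK) cells, chosen by name: Cd3e, Cd3d, Cd3g, Cd4, Cd8a, Lck, Nkg7, Gzma, Klrb1c and Ccl5. They were read by 14 of 39429 probes, among 30026 genes on the array. The samples were livers of C57BL/6N mice in 4 groups: Pnpla7-/- (KO) at 6 weeks of age, wild type (WT) at 6 weeks, KO at 3 weeks and WT at 3 weeks. PNPLA7 is a lysophospholipase, and the series asks how the breakdown of phosphatidylcholine in liver feeds choline into the methionine cycle. Each group was 1 one-colour array of RNA pooled from 5 animals, so no animal-to-animal spread is known and no single comparison below has a replicate or a test.

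T cells recognise peptides through an antigen receptor whose signal is carried by the CD3 chains, helped by the co-receptors CD4 or CD8 and started by the kinase LCK. NK cells carry no such receptor and are told apart by lectin-like receptors such as NK1.1, the product of Klrb1c in this mouse strain. Both kinds of cell kill through granules that hold granzymes, and both release the chemokine CCL5. Liver holds NK, NKT and T cells in its sinusoids, and the NK-type cells are a larger part of its lymphocytes than of those in blood.

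Levels are given in units of the array's own 75th percentile, and the ± beside a level is the scanner's error for a single spot, or the SD between spots for a probe printed 10 times. The ± beside a log2 ratio is the standard error that follows from these, with the spots' SD divided by the root of their number. A probe's level depends on its sequence, so levels are compared between arrays and never between probes. A spot counts as measured where the scanner's flag put it well above background. Because whole liver was measured, fewer cells of a type and less RNA per cell cannot be told apart.

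Of 43020 non-control spots per array, between 28714 and 30697 were well above background, and all 12 hepatocyte markers (Alb, Apoa1, Ttr and others) were measured on every array. Pnpla7 itself read 4.42 in KO and 9.65 in WT at 6 weeks, and 6.70 in KO and 7.54 in WT at 3 weeks. The sources used here do not say which exons the knockout lacks, so this probe does not check the labels and every direction below rests on them. Of 15 skeletal muscle markers, 14 were at least 2-fold higher in KO at 6 weeks and 15 at 3 weeks, with a summed level of 42.3 in KO against 1.48 in WT at 6 weeks and 68.1 in KO against 0.750 in WT at 3 weeks. All arrays lay on 1 slide, where position and group cannot be told apart.

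The probes are 60-base oligonucleotides, and 5 of the 14 are shown: that of Cd3d because it spells a signalling motif, and those of Cd4 and Klrb1c because these genes had the ratios furthest above 0 and a pair of probes each. The Cd3d probe lies at mm9 chr9:44794171-44794402 on the plus strand, a span of 232 bases for its 60, so it crosses an exon junction. Its capitals mark 2 copies, in one frame on the given strand, of a codon TAN, a pair of any codons and a codon CTN. Here TAN is TAT and TAC, for tyrosine, and CTN is CTT, for leucine. Such a tyrosine, any pair of residues and a leucine, in 2 copies, is the signalling motif of CD3 chains, phosphorylated by LCK. The base pattern, in which TAN may also be a stop codon, stood in 2 copies in one frame in 0.5% of all 39429 probes. The probes of Cd4 and Klrb1c that start nearer the 5′ end of the transcript are printed whole in lower case, and of the probes nearer the 3′ end only the last 30 bases are printed, with the polyadenylation signal AATAAA in capitals where it occurs. Of all probes, 12.6% hold AATAAA on the given strand. Sequences are from the deposited array files.
Cd3d probe: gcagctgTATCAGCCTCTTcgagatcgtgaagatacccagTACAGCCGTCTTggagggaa
Cd4 probe starting at base 1242: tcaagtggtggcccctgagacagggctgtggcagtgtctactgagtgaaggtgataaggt
Cd4 probe starting at base 3035, last 30 bases: acagaaaAATAAAggctataAATAAAatgc
Klrb1c probe starting at base 344: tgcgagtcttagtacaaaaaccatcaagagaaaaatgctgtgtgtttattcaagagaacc
Klrb1c probe starting at base 1464, last 30 bases: ctcttttcttgctgtggaacgctactgctg

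Most T and NK cell genes lay within 2-fold between KO and WT, as did most genes measured. Klrb1c, at 6 weeks, was the 1 member past 2-fold of the 9 measured, where 10.7% of 21331 genes passed 2-fold in either direction, 6.12% as higher in KO and 4.55% as lower. At 3 weeks 0 of 9 passed, where 5.93% of 21141 genes did, 2.95% as higher and 2.98% as lower. The median log2 ratio of KO over WT over the 9 members was -0.05 at 6 weeks and -0.05 at 3 weeks, against 0.05 and 0.00 over all genes measured at these ages. Of the 9, 3 lay above 0 and 6 below at 6 weeks, and 2 above and 7 below at 3 weeks.

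**Figure D1:**
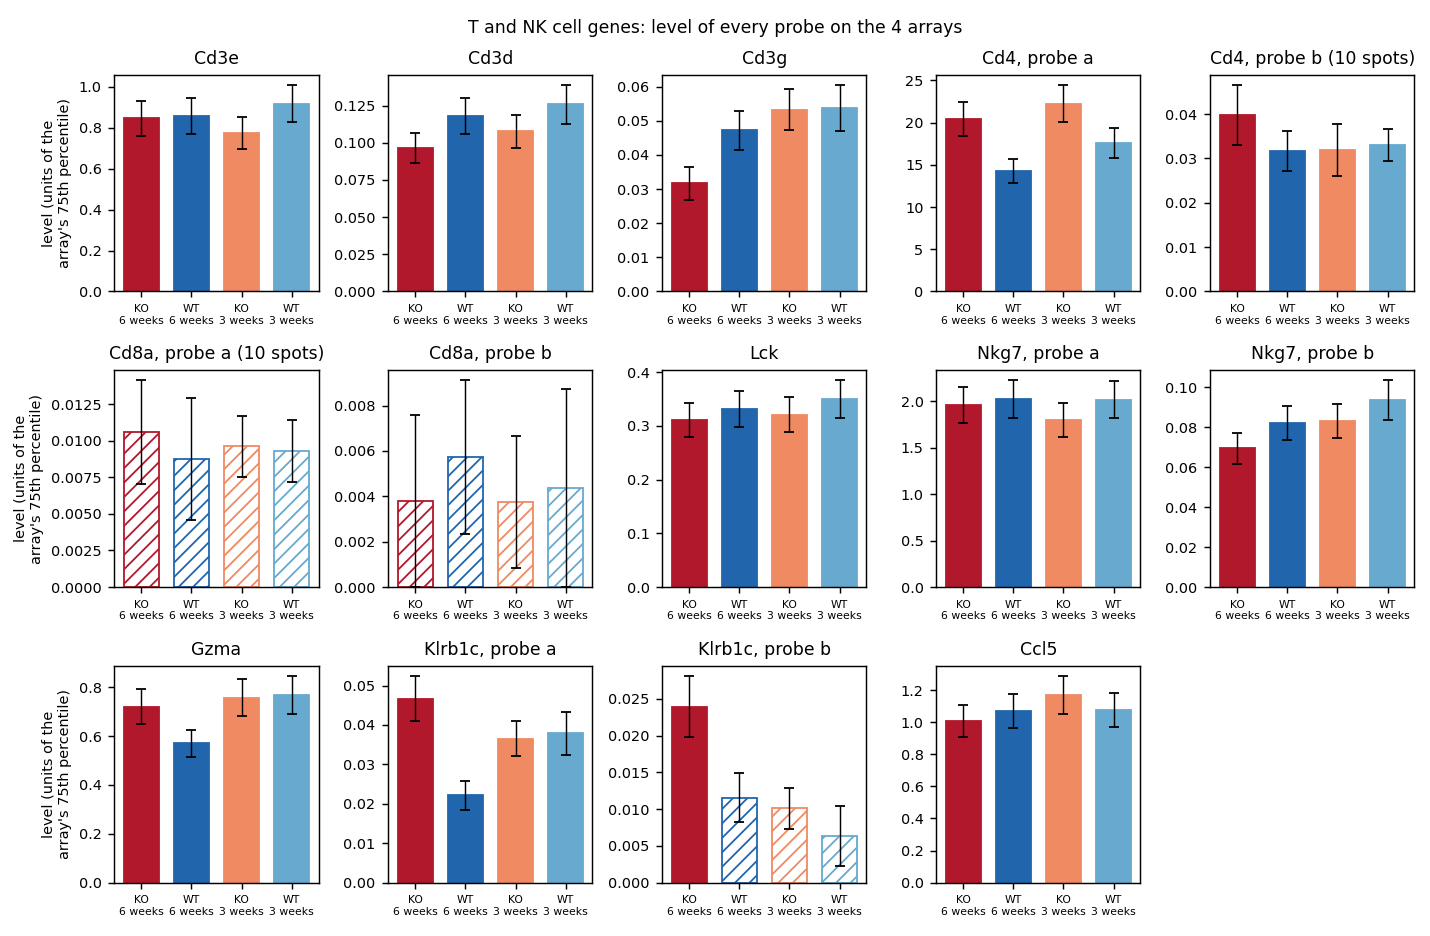
Level of each of the 14 probes (y axis, units of the array's 75th percentile) on the arrays KO at 6 weeks, WT at 6 weeks, KO at 3 weeks and WT at 3 weeks. Error bars are the scanner's error of 1 spot, or the SD between the spots kept for probes printed 10 times, and hatched bars were not well above background. Probe a is the brighter of 2. Bars of Cd3e, Lck, Ccl5 and the brighter Nkg7 probe are nearly level, while Klrb1c is highest in KO at 6 weeks on both probes.

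The CD3 chains form the signalling part of the T cell receptor. Cd3e, the epsilon chain, read 0.847 ± 0.0848 in KO and 0.857 ± 0.0858 in WT at 6 weeks, and 0.776 ± 0.0777 in KO and 0.918 ± 0.0919 in WT at 3 weeks. The 4 readings overlapped within their errors, with log2 ratios of KO over WT of -0.02 ± 0.20 at 6 weeks and -0.24 ± 0.20 at 3 weeks. Cd3d, the delta chain, read 0.0966 ± 0.0101 in KO and 0.118 ± 0.0121 in WT at 6 weeks, and 0.108 ± 0.0110 in KO and 0.126 ± 0.0130 in WT at 3 weeks. KO was below WT at both ages, with log2 ratios of -0.29 ± 0.21 and -0.23 ± 0.21, and the 95% interval of the measurement held 0 for both.

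Cd3g, the gamma chain, read 0.0317 ± 0.00483 in KO and 0.0472 ± 0.00565 in WT at 6 weeks, and 0.0533 ± 0.00595 in KO and 0.0539 ± 0.00669 in WT at 3 weeks. KO at 6 weeks was below all other arrays, which were within error of one another. The log2 ratio at 6 weeks was -0.57 ± 0.28, and that at 3 weeks was -0.02 ± 0.24. The 3 chains are encoded next to one another on chromosome 9, with probes at mm9 chr9:44777868-44777927 (Cd3g, minus strand), the stretch given above (Cd3d) and mm9 chr9:44806828-44806887 (Cd3e, minus strand).

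Lck, the kinase that phosphorylates the CD3 chains, varied least among the members with 1 probe. At mm9 chr4:129225614-129225673 (minus strand) it read 0.310 ± 0.0312 in KO and 0.331 ± 0.0333 in WT at 6 weeks, and 0.321 ± 0.0322 in KO and 0.349 ± 0.0351 in WT at 3 weeks, a highest-to-lowest ratio of 1.13. Its log2 ratios of -0.09 ± 0.21 and -0.12 ± 0.20 were both within the measurement error.

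Cd4, which encodes the co-receptor of helper T cells, had 2 probes, at mm9 chr6:124814711-124814770 and chr6:124817706-124817765, both on the minus strand. The probe that ends in the polyadenylation signals read 20.4 ± 2.04 in KO and 14.3 ± 1.43 in WT at 6 weeks, and 22.3 ± 2.23 in KO and 17.6 ± 1.76 in WT at 3 weeks. On this probe KO was above WT at both ages, by log2 ratios of 0.52 ± 0.20 and 0.34 ± 0.20. At 3 weeks the measurement interval held 0.

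The other Cd4 probe, printed as 10 spots, read 0.0398 ± 0.00678 in KO (n = 10 spots) and 0.0317 ± 0.00453 in WT (n = 10) at 6 weeks, and 0.0319 ± 0.00577 in KO (n = 10) and 0.0330 ± 0.00355 in WT (n = 8) at 3 weeks. It too was highest in KO at 6 weeks, with a log2 ratio of 0.33 ± 0.10 at that age, but it showed -0.05 ± 0.09 at 3 weeks, where the first probe had KO above WT. The probes gave the same direction at 6 weeks and not at 3 weeks, where the measurement interval of each held 0. Whether each reads the Cd4 transcript was not tested.

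Cd8a, which encodes the other co-receptor, was not well above background on any array with either of its 2 probes. The probe printed as 10 spots, at mm9 chr6:71328911-71328970 (plus strand), had 1 of 9 kept spots above background in KO and 1 of 9 in WT at 6 weeks, and 1 of 9 in KO and 0 of 8 in WT at 3 weeks. Cd8b1, which encodes the partner chain, was measured on all 4 arrays, with 0.0207 in KO and 0.0239 in WT at 6 weeks, and 0.0295 in KO and 0.0297 in WT at 3 weeks.

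Of the NK cell and cytotoxic genes, Nkg7 encodes a granule membrane protein of NK and cytotoxic T cells. Its probe at mm9 chr7:50693530-50693589 (plus strand) read 1.96 ± 0.196 in KO and 2.02 ± 0.202 in WT at 6 weeks, and 1.80 ± 0.180 in KO and 2.02 ± 0.202 in WT at 3 weeks. A second probe, at mm9 chr7:50693148-50693207 (plus strand), read 0.0694 ± 0.00754 in KO and 0.0822 ± 0.00861 in WT at 6 weeks, and 0.0832 ± 0.00860 in KO and 0.0936 ± 0.00990 in WT at 3 weeks. Both probes had KO a little below WT at both ages, with log2 ratios from -0.24 ± 0.22 to -0.05 ± 0.20, and none was outside the measurement interval.

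Gzma, granzyme A, at mm9 chr13:113884035-113884094 (minus strand), read 0.721 ± 0.0722 in KO and 0.570 ± 0.0571 in WT at 6 weeks, and 0.757 ± 0.0758 in KO and 0.770 ± 0.0771 in WT at 3 weeks. WT at 6 weeks was the low array, and the other readings were within error of one another. The log2 ratio was 0.34 ± 0.20 at 6 weeks and -0.02 ± 0.20 at 3 weeks.

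Klrb1c, which encodes NK1.1, was the member with the largest difference. Its probe at mm9 chr6:128729611-128729670 (minus strand) read 0.0467 ± 0.00577 in KO and 0.0221 ± 0.00380 in WT at 6 weeks, and 0.0365 ± 0.00451 in KO and 0.0379 ± 0.00552 in WT at 3 weeks. KO at 6 weeks was the highest array and WT at 6 weeks the lowest, so the log2 ratio of 1.08 ± 0.31 at 6 weeks rested on both, and that at 3 weeks was -0.05 ± 0.28. With normexp background correction and quantile normalization the ratio at 6 weeks was 0.31, and with quantile normalization alone 0.95, both under 2-fold.

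The second Klrb1c probe, at mm9 chr6:128734770-128734829 (minus strand), was well above background in KO at 6 weeks alone. It read 0.0239 ± 0.00418 in KO and 0.0116 ± 0.00332 in WT at 6 weeks, and 0.0101 ± 0.00285 in KO and 0.00638 ± 0.00410 in WT at 3 weeks. Against the higher of WT's own reading and the lowest signal above background on that array, KO was at least 2-fold higher than WT at 6 weeks. Genes of the Klrb1 family resemble one another closely, and cross-reading between them was not tested.

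Ccl5, the chemokine RANTES, at mm9 chr11:83339296-83339355 (minus strand), read 1.01 ± 0.101 in KO and 1.07 ± 0.107 in WT at 6 weeks, and 1.17 ± 0.117 in KO and 1.08 ± 0.108 in WT at 3 weeks. All readings overlapped within their errors, and KO over WT was -0.09 ± 0.20 on the log2 scale at 6 weeks, then 0.12 ± 0.20 at 3 weeks.

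**Figure D2:**
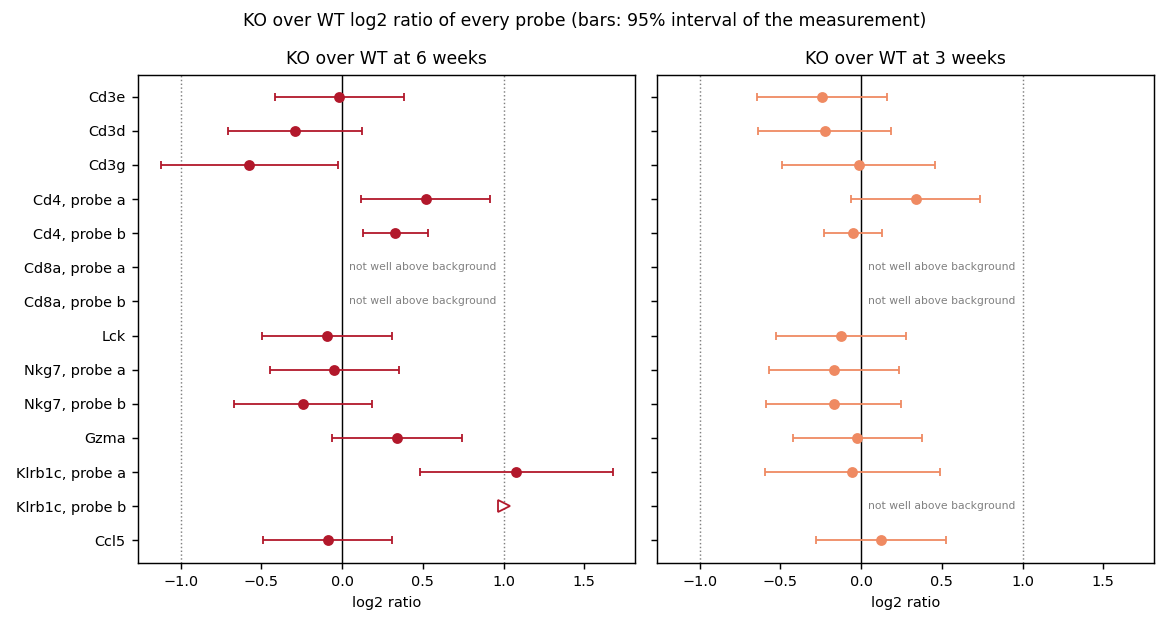
Log2 ratio of KO over WT (x axis) for each probe (y axis) at 6 weeks, left, and 3 weeks, right. Points carry the 95% interval of the measurement, the open triangle is a lower bound, and dotted lines mark 2-fold. The interval of the dimmer Cd4 probe rests on the spread between its spots alone, without the scanner's error. At 6 weeks the intervals of Cd3g, both Cd4 probes and 1 Klrb1c probe leave out 0, and at 3 weeks none does.

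Over all member probes, 11 ratios of KO over WT could be measured at each age. The 95% interval from scanner or spot error left out 0 for 4 of 11 at 6 weeks (Cd3g, both Cd4 probes and Klrb1c), where it did so for 28.1% of 25207 probes measured on both arrays. At 3 weeks it left out 0 for 0 of 11, where it did so for 10.9% of 25446 probes. That interval covers the reading of the array and not the animals or the pooling, which have no replicate here.

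Between the ages, all members measured lay within 2-fold on their brightest probe, as did most genes. The second Klrb1c probe, measured in KO at 6 weeks alone, was at least 2.36-fold higher there than in KO at 3 weeks. In KO, 6 weeks over 3 weeks, 0 of 9 members passed 2-fold, where 12.4% of 21670 genes did, 6.1% as higher at 6 weeks and 6.35% as lower. In WT 0 of 9 passed, where 9.18% of 20985 genes did, 3.67% as higher and 5.5% as lower. Their median log2 ratio was -0.07 in KO, against 0.06 over all genes, and -0.10 in WT, against 0.01. On the brightest probes the largest differences were those of Cd3g in KO, at -0.75 ± 0.27, and Klrb1c in WT, at -0.78 ± 0.32, both lower at 6 weeks. The value of Klrb1c in WT was -0.14 with normexp and quantile normalization and 0.04 with the mean of its probes, which turns the direction. That mean includes the second probe, which was not well above background on either WT array. Gzma in WT was also lower at 6 weeks, at -0.43 ± 0.20. These comparisons use the same arrays as those between genotypes, so they are not independent of them. The KO over WT ratio itself differed by 4-fold between the ages for 0 of 9 members, where 1.52% of 18870 genes did, 0.837% as higher at 6 weeks and 0.684% as lower.

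Some lists of other blood cells had medians further from 0. Erythroid markers had a median log2 ratio of 6 weeks over 3 weeks of -1.91 in KO and -1.80 in WT, and neutrophil and monocyte markers one of -1.21 in KO and -2.38 in WT. B cell markers, with -0.14 in KO and -0.12 in WT, and dendritic cell markers, with -0.11 in KO and -0.03 in WT, lay close to the members. For 8 of the 9 members measured on all 4 arrays the highest array was under 2-fold above the lowest, beside 84.2% of 18870 genes.

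limma, fitted to all 4 arrays with terms for age and genotype, compares KO with WT within each age and has 1 residual degree of freedom, so each gene's spread combines how far its genotype effect differed between the ages with a prior taken from all genes. It called 0 of 22646 genes (0%) for genotype and 0 for age after Benjamini-Hochberg adjustment, with 1007 and 2307 genes at an unadjusted p under 0.05. Of the 9 members 0 were under it in either. The smallest adjusted p among members in limma was 0.914 for genotype and 0.541 for age. limma's log2 estimates for genotype ran from -0.29 ± 0.23 for Cd3g to 0.51 ± 0.38 for Klrb1c. Allowing the prior variance to follow intensity, limma called 4 genes for genotype, 0 of them members. Cd4, read by its brighter probe, then had an unadjusted p of 0.0300 and an adjusted p of 0.892 in limma.

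Most genes of the T cell receptor pathway beyond the members were also within 2-fold, with Zap70 furthest from level at 3 weeks. Of 24 such genes, 19 were measured at 6 weeks, of which 0 were at least 2-fold higher in KO and 1 lower, with a median of -0.07. Over all genes, 6.12% were higher at that age and 4.55% lower. At 3 weeks 0 of 19 were higher and 1 lower, where 2.95% and 2.98% of all genes were, and the median was -0.21. Trat1, Ubash3a, Themis, Ctla4 and Cd96 were not well above background on any array. Zap70, the kinase recruited to phosphorylated CD3 chains, was the gene lower at 3 weeks. It read 1.18 in KO and 1.94 in WT at 6 weeks, and 0.562 in KO and 1.21 in WT at 3 weeks, so KO was below WT at both ages, by log2 ratios of -0.72 and -1.10.

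A second Zap70 probe had KO below WT as well, at both ages, by -0.61 and -1.15. limma's estimate for genotype over both ages was -0.91 ± 0.19, with an unadjusted p of 0.0240 and an adjusted p of 0.914. Lcp2, an adaptor that binds downstream of ZAP70, was the gene lower at 6 weeks, with 0.0213 in KO and 0.0466 in WT and a log2 ratio of -1.13. Its second probe had -0.68. Skap1, another adaptor, had -0.95 at 3 weeks.

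Among 13 transcription factors of T and NK cells, 10 were measured at 6 weeks. Of these, 1 was at least 2-fold higher in KO and 0 lower, where 6.12% of all genes were higher and 4.55% lower. The higher factor was Zbtb16, which encodes the NKT cell factor PLZF and is expressed in other tissues too. It read 4.86 in KO and 2.08 in WT at 6 weeks. Its log2 ratio was 1.22 at that age and 0.26 at 3 weeks. Gata3, a factor of T cell development named after its values were seen, was lower at 6 weeks than at 3 weeks by -2.17 in KO and -1.72 in WT. Eomes, which NK cells need to mature, was not well above background on any array.

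Of 23 NK cell receptors and adaptors listed, 22 were found by symbol, 9 of these were measured on all 4 arrays, and 8, among them Ncr1 and Klrk1, were not well above background on any array. At 6 weeks 2 of 13 measured were at least 2-fold higher in KO, where 6.12% of all genes were, and 2 lower, where 4.55% were. The median was -0.20. Klrb1a, a neighbour and close relative of Klrb1c, was one of the higher genes, with 0.0451 in KO and 0.0191 in WT at 6 weeks and 0.0257 in KO and 0.0219 in WT at 3 weeks. Its log2 ratio of 1.24 at 6 weeks was in the same direction as that of Klrb1c, and at 3 weeks it was 0.23.

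Klrg1, a receptor of mature NK and T cells, was the other higher gene. It was at least 6.84-fold higher in KO at 6 weeks, with 0.0822 in KO and 0.0120, not well above background, in WT. At 3 weeks it read 0.0121 in KO and 0.00762, not well above background, in WT. The lower genes at 6 weeks were Klra8 and Itga2, Itga2 with a bound because KO was not well above background. Klra8 had a log2 ratio of -2.01 at 6 weeks on its brightest probe and -0.39 on the next, so its probes disagreed in size. Tyrobp and Fcer1g, adaptors shared with macrophages, had 3.18 and 2.21 in KO and 5.21 and 3.53 in WT at 6 weeks. At 3 weeks 1 of 11 measured receptors passed 2-fold, where 5.93% of all genes did. It was Klrb1b, higher in KO and read at that age on 1 array alone. Il2rb, the receptor chain through which NK cells receive IL-15, was level at 0.106 in KO and 0.0970 in WT at 6 weeks, and 0.0965 in KO and 0.0960 in WT at 3 weeks.

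Of the cytotoxic effectors 0 passed 2-fold at either age, of 12 measured at 6 weeks and 13 at 3 weeks, with medians of 0.08 and -0.15. Over all genes, 10.7% passed 2-fold at 6 weeks and 5.93% at 3 weeks. Prf1, the pore-forming protein perforin, read 0.189 in KO and 0.156 in WT at 6 weeks, and 0.161 in KO and 0.168 in WT at 3 weeks. Gzmb, granzyme B, read 0.106 in KO and 0.0869 in WT at 6 weeks, and 0.132 in KO and 0.142 in WT at 3 weeks. Both shared with Gzma the signs of its ratios and the lowest array, WT at 6 weeks. For Prf1 that array was close to both arrays at 3 weeks, and for Gzmb KO at 6 weeks was also below them. The ratios of Prf1 and Gzmb lay above 0 at 6 weeks (0.27 for Prf1 and 0.28 for Gzmb) and below 0 at 3 weeks (-0.06 and -0.11), all within 1.5-fold. Among genes measured on both arrays of an age, the ratios furthest from 0 were those of Fasl, the death receptor ligand (0.85), and Ifng, interferon gamma (-0.74), at 6 weeks, and of the granzymes Gzmc (-0.96) and Gzmm (0.81) at 3 weeks. Xcl1, a chemokine of NK cells measured at 6 weeks in WT alone, was at least 1.92-fold lower in KO.

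Several chemokines related to Ccl5 were lower in KO at 6 weeks. Of 19 chemokines and chemokine receptors of lymphocyte traffic, 17 were measured at 6 weeks, with 0 at least 2-fold higher in KO and 6 lower, where 4.55% of all genes were lower, and 16 of 17 lay below 0. The median was -0.48 at 6 weeks. At 3 weeks 0 of 18 passed 2-fold, where 5.93% of all genes did, and the median was -0.02. Cxcl9, which draws T and NK cells through CXCR3, read 0.606 in KO and 1.92 in WT at 6 weeks, and 1.15 in KO and 1.64 in WT at 3 weeks. Its log2 ratio of -1.66 at 6 weeks was matched by -1.55 on a second probe.

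Cxcl10, which binds the same receptor, had 0.636 in KO and 1.56 in WT at 6 weeks, a log2 ratio of -1.30. Ccl4 had -1.05, and Ccl3, not well above background in KO at 6 weeks, was at least 2.51-fold lower there. Both encode chemokines of macrophages and activated lymphocytes. Ccr2, a monocyte receptor, was at least 2.66-fold lower in KO at 6 weeks, and Ackr1, which binds chemokines without signalling, had a ratio of -1.06. Receptors carried by T and NK cells differed less: Cxcr3 had -0.42 and Cxcr6 -0.05 at 6 weeks. Ccr3, an eosinophil receptor that also binds CCL5, had -0.62 at 6 weeks and -0.51 at 3 weeks.

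**Figure D3:**
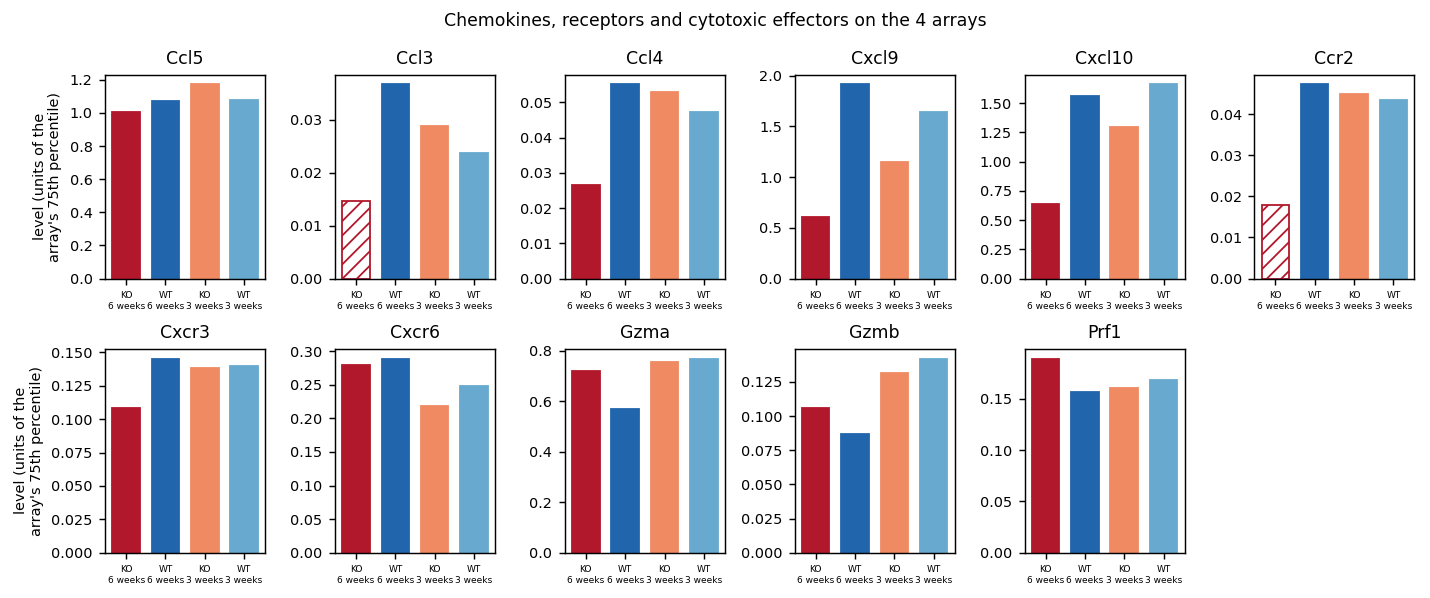
Level (y axis, units of the array's 75th percentile) of Ccl5, 7 related chemokines and receptors, and 3 cytotoxic effectors on the 4 arrays. Hatched bars were not well above background. Cxcl9, Cxcl10, Ccl3, Ccl4, Ccr2 and Cxcr3 are lowest in KO at 6 weeks. Ccl5, at 1.01, is lowest there too, but close to its other readings of 1.07 to 1.17.

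Markers of macrophages were lower in KO at the same age. Kupffer cell and macrophage markers, all 14 measured on every array, had a median log2 ratio of -0.75 at 6 weeks. Past 2-fold, 3 were lower and 0 higher, where 4.55% and 6.12% of all genes were. Their summed level was 54.6 in KO and 93.0 in WT. At 3 weeks the median was -0.07 and the sums were 94.9 in KO and 103 in WT. Their part in the chemokine difference was not tested. Sinusoidal endothelial markers had a median of -0.34 at 6 weeks, B cell and plasma cell markers -0.18, dendritic cell markers -0.04, neutrophil and monocyte markers 0.11, MHC class I genes 0.10 and cell cycle genes -1.94, beside -0.05 for the T and NK genes.

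At 3 weeks these medians were 0.11, -0.21, -0.11, -0.42, -0.13 and -0.50, beside -0.05. No test compares one list with another here, and the members differ from these lists only as medians of 1 pair of arrays. Muscle markers were higher in KO at both ages, and their part in the Klrb1c difference was not tested.

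**Figure D4:**
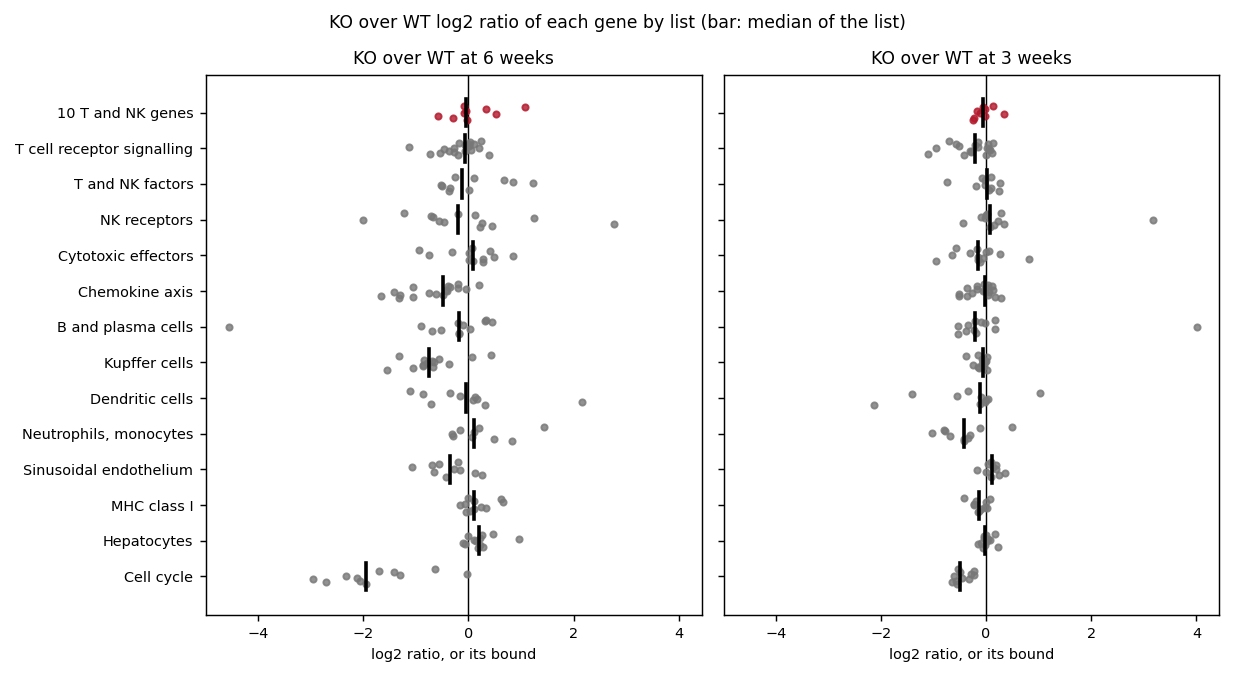
Log2 ratio of KO over WT (x axis), or its bound, for each gene of 14 lists (y axis) at 6 weeks, left, and 3 weeks, right. Black bars are list medians and the 10 T and NK genes are in red, less Cd8a, which was not well above background. At 6 weeks the medians of the chemokine axis, at -0.48, and of Kupffer cell markers, at -0.75, lie below that of the T and NK genes, at -0.05.

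The genes whose pattern over the 4 arrays lay nearest to the median pattern of the 9 members were Triap1, Pacrgl, Mcmbp, Gpr3 and Sec61b, ranked by Euclidean distance of centred log2 levels among 14144 genes measured on all arrays. Their distances ran from 0.00728 to 0.0126. Since the median pattern is close to flat, 2697 of the 14144 genes lay within 0.2 of it. The members themselves lay between 0.0869 for Lck and 0.784 for Klrb1c from their own median.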

How the data were processed

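Total RNA pooled from 5 livers per group was hybridised to 4 one-colour Agilent arrays. The submitters' processing notes name Agilent Feature Extraction 11.5.1.1. The file headers record background subtraction and detrending within each array, without scaling between arrays, for the authors' deposited intensity values. Flags of 0 or 1 for outliers and spots well above background were deposited beside them. The authors' value table equals the processed intensity over each array's 75th percentile (column medians 0.0864, 0.0853, 0.0896 and 0.0878 for KO and WT at 6 weeks and KO and WT at 3 weeks).

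Control spots were dropped, each array was divided by the 75th percentile of its processed intensity, outlier spots (189 to 252 per array) were left out, spots of a probe were averaged and log2 was taken. No spot was saturated. A probe was measured where over 0.5 of its spots were flagged well above background, and a gene took its brightest probe. Of 39429 probes, 27508 were named by accession, 3544 by symbol, 404 by synonym in a RefSeq table, and 7973 kept the file's name. A gene entered a comparison where 1 of the 2 arrays measured it. Where only 1 did, the ratio is a bound against the dim array's lowest signal above background or, if higher, the dim probe's own signal, and genes whose bound fell below 1-fold were left out.

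Ratios carry a measurement error from the scanner's spot errors or the spots' SD. Age and genotype were fitted with limma 3.58.1 under R 4.3.3. Python 3.11.15, numpy 2.4.6 and pandas 2.3.3 did the rest. Steps were tested on simulated data. Members and lists were chosen with earlier results of these data known. From other lists, up to 2 genes per age with the largest KO over WT ratio were named, and other genes after their values were seen. Alternatives covered background correction, scaling, filters, probes, thresholds and the variance prior. Results for 2 genes of the lists are not reported here.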

Additional observations from a re-analysis of the deposited data

Results flagged for a closer look

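For 3 members the ratio of KO over WT lay on opposite sides of 0 at the ages. At 3 weeks the measurement interval of each held 0, so no opposite change was measured, and with 1 array per group the difference was not tested. For Klrb1c the log2 ratio was 1.08 at 6 weeks and -0.05 at 3 weeks, a difference of 1.13 ± 0.41, whose measurement interval leaves out 0. With normexp background correction and quantile normalization the difference was 0.27, and the ratio at 3 weeks was above 0, at 0.05. It was also above 0 with the mean of both probes, at 0.30, though the second probe was not well above background on either array at 3 weeks. For Gzma the ratios were 0.34 and -0.02, a difference of 0.36 ± 0.29, and for Ccl5 they were -0.09 and 0.12, a difference of -0.21 ± 0.29. For both, the measurement interval holds 0.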

How the results depend on the processing

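Ratios and medians of the members were recomputed under 8 alternatives, and under the second probe of a gene, an alternative chosen after seeing the data. The count of members at least 2-fold higher in KO at 6 weeks, 1 as reported, was 0 with normexp and quantile normalization, 0 with quantile normalization alone and 0 at 3-fold. The count lower at 6 weeks than at 3 weeks, 0 as reported, was 1 in KO and 1 in WT at 1.5-fold. With the second probe 1 member, Klrb1c, was at least 2-fold higher at 6 weeks than at 3 weeks in KO, and the ratio of Cd4 for that comparison was 0.32 in place of -0.13. With the mean of all probes the ratio of Klrb1c for 6 weeks over 3 weeks in WT was 0.04 in place of -0.78. Its second probe was not well above background on either WT array. The causes were not tested. The median of the members ran from -0.09 to -0.03 for KO over WT at 6 weeks, from -0.09 to -0.02 at 3 weeks, from -0.07 to -0.02 between ages in KO and from -0.10 to -0.06 in WT. That of the difference between ages ran from -0.02, with the second probe, to 0.15. limma called 0 of 9 members under each alternative run. Under normexp and quantile normalization Cd4 had unadjusted p-values of 0.0431 for genotype and 0.0350 for age in limma, with adjusted values of 0.85 and 0.36. No paired analysis was possible because each group had 1 array and so no replicate numbers to pair, beyond limma's comparison of KO with WT within each age. Dim spots, above all those of Cd8a, Klrb1c and Cd3g, limit what can be read, and the number of arrays limits every value.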
